A study of Homo sapiens with 27 samples.

Results

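The mRNAs of 10 heterogeneous nuclear ribonucleoprotein (hnRNP) genes were followed through the nuclear, cytoplasmic/ER and total RNA of U2OS cells, a human osteosarcoma line, with and without depletion of TPR, a protein of the nuclear pore basket. The genes were HNRNPA1, HNRNPA2B1, HNRNPC, HNRNPD, HNRNPDL, HNRNPH1, HNRNPK, HNRNPL, HNRNPM and HNRNPU, picked by their Ensembl identifiers from a table of 34464 genes. All 10 were found, and all 10 passed the minimum mean of 1 FPKM that left 14611 genes for testing. FPKM stands for fragments per kilobase of transcript, scaled for each library. Cells received a scrambled control shRNA or 1 of a pair of shRNAs against TPR, called TPR A and TPR D, by lentivirus for 5 days. With 3 cultures per shRNA and 3 poly(A)-selected libraries per culture (nuclear, cytoplasmic/ER and total) there were 27 libraries in 9 groups of 3. All groups, control included, carried a lentivirus, and all came from 1 cell line.

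hnRNP proteins coat nascent transcripts in the nucleus and take part in splicing, in 3′ end processing and in the packaging of mRNA for export. Most are very abundant nuclear proteins, and several shuttle between nucleus and cytoplasm with their mRNA cargo. Many hnRNP genes are known to control the splicing of their own transcripts, including isoforms that stay in the nucleus or are degraded. The N/C ratios below describe the mRNAs of these genes, not the location of the proteins.

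The coordinates of the 10 genes are those of GRCh37 (hg19) with the lifted GENCODE 44 annotation. HNRNPA1, a core particle protein and splicing repressor, is at chr12:54673977-54680872 on the plus strand. HNRNPA2B1, its close relative and a sorter of transported mRNAs, is at chr7:26210771-26241149 on the minus strand. HNRNPC, a uridine-binding protein that stays in the nucleus, is at chr14:21677295-21737653 on the minus strand. HNRNPD, also known as AUF1 and a regulator of AU-rich mRNA decay, and its paralog HNRNPDL are near neighbours at chr4:83273651-83295656 and chr4:83343718-83351615, both on the minus strand. HNRNPH1, which binds G-rich splicing elements, is at chr5:179041179-179061785 on the minus strand. HNRNPK, a KH-domain protein that binds C-rich sequence, is at chr9:86582998-86595546 on the minus strand. HNRNPL, which binds CA repeats, is at chr19:39327010-39342987 on the minus strand, and HNRNPM, a splicing regulator that binds GU-rich sequence, is at chr19:8509651-8553998 on the plus strand. HNRNPU, also called SAF-A, the scaffold attachment protein of chromatin, is at chr1:245003940-245027862 on the minus strand.

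In their canonical transcripts the 10 genes had a median of 12 exons, a median mRNA of 3116.5 nt and a median unspliced length of 12875 nt. The medians over 13925 tested genes with annotation were 8 exons, 2998 nt and 26274 nt. HNRNPC was the longest unspliced transcript of the 10 (60296 nt) and HNRNPA1 the shortest (6362 nt). Some of the genes share sequence or position with others. HNRNPA1 has retrotransposed copies, of which HNRNPA1L2 had a mean of 4.94 FPKM, and HNRNPCL1, a copy of HNRNPC, had 0.598 FPKM. HNRNPL overlaps on the same strand the annotated gene ENSG00000268083, which was assigned 17.7 to 276 FPKM, so its value is uncertain where reads were divided between both. HNRNPA2B1 meets CBX3 and HNRNPU meets COX20 on the opposite strand. The library kit was strand-specific, but the strand setting of the quantification is not given in the sources used here.

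TPR itself (ENSG00000047410) was at 28.2, 25.7 and 25.3 FPKM in the total libraries of control replicates 1 to 3. It was at 4.36, 3.44 and 4.70 FPKM with TPR A and at 3.23, 4.74 and 6.01 FPKM with TPR D. The groups did not overlap, and limma, the linear model fitted over all genes and all 27 libraries, gave log2 changes of -2.58 for TPR A (adjusted p = 0.0012) and -2.44 for TPR D (adjusted p = 0.0016). In nuclear RNA the decrease was 13.6-fold and 11.8-fold. Among markers of U2OS cells, VIM, SPARC, CD44, FN1, COL1A1, CDH2 and RUNX2 had means of 15.8 to 1617 FPKM, whereas COL1A2 was at 0.264 FPKM. Markers of epithelial, blood and liver cells were at 3.88 FPKM (EPCAM), 0.627 (CDH1), 0.382 (PTPRC) and 0.0022 (ALB).

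In 1 culture, the libraries labelled nuclear and total did not match these fractions by mitochondrial share and by correlation across genes. Transcripts of the mitochondrial genome made up 26.5 to 37.9% of the FPKM in cytoplasmic/ER libraries and 0.774 to 2.42% in 8 nuclear libraries. For control replicate 2 they made up 21.8% of the library labelled nuclear and 0.738% of the one labelled total, against 15.8 to 24.7% in the other 8 total libraries. By correlation across genes, 25 of 27 libraries were closest to the mean of their labelled fraction. The library labelled control replicate 2 nuclear was closest to the total libraries (r = 0.976, against 0.944 for nuclear) and the one labelled total was closest to the nuclear libraries (r = 0.972, against 0.940 for total). The nuclear RNAs MALAT1 and NEAT1 did not show such a mismatch. Their rescaled log2 ratios of nuclear over cytoplasmic/ER RNA were highest in control replicate 2, at 3.24 and 3.41. In the other cultures they ran from 0.52 to 2.80 and from 1.37 to 2.94. The labels were not altered here, and the main results that rest on this culture, control replicate 2, are given with and without it. At 1 FPKM, a transcript of 1 kb had 31.7 to 87.2 reads, so a member gene rested on an estimated 13000 reads or more per library. FPKM values are relative levels, and in bulk RNA fewer cells with a transcript and less transcript per cell cannot be told apart.

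All 10 genes were highly expressed in each fraction, and HNRNPA1 led in all of them. In total RNA its level ran from 989.8 to 2820 FPKM with a median of 1302 over 9 libraries, which placed its mean at rank 53 of the 14611 genes. HNRNPU was the lowest of the 10, at 133.8 to 430.4 FPKM with a median of 161, and its mean still ranked at 571. The highest total value of every one of the 10 genes was that of the library labelled control replicate 2. Without that library the order of mean log2 levels per length in total RNA was HNRNPA1, HNRNPM, HNRNPA2B1, HNRNPD, HNRNPC, HNRNPH1, HNRNPK, HNRNPL, HNRNPDL and HNRNPU. HNRNPA1 exceeded HNRNPM by 1.11 ± 0.24 on the log2 scale (SD, n = 8 libraries), in 8 of 8. The neighbours HNRNPM and HNRNPA2B1, HNRNPD and HNRNPC, HNRNPC and HNRNPH1, and HNRNPL and HNRNPDL differed by less than the spread over the libraries. Summed, the 10 genes made up 0.737 to 0.940% of the FPKM outside the mitochondrial genome in nuclear libraries and 0.297 to 0.515% in cytoplasmic/ER libraries, and these ranges did not overlap.

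**Figure D1:**
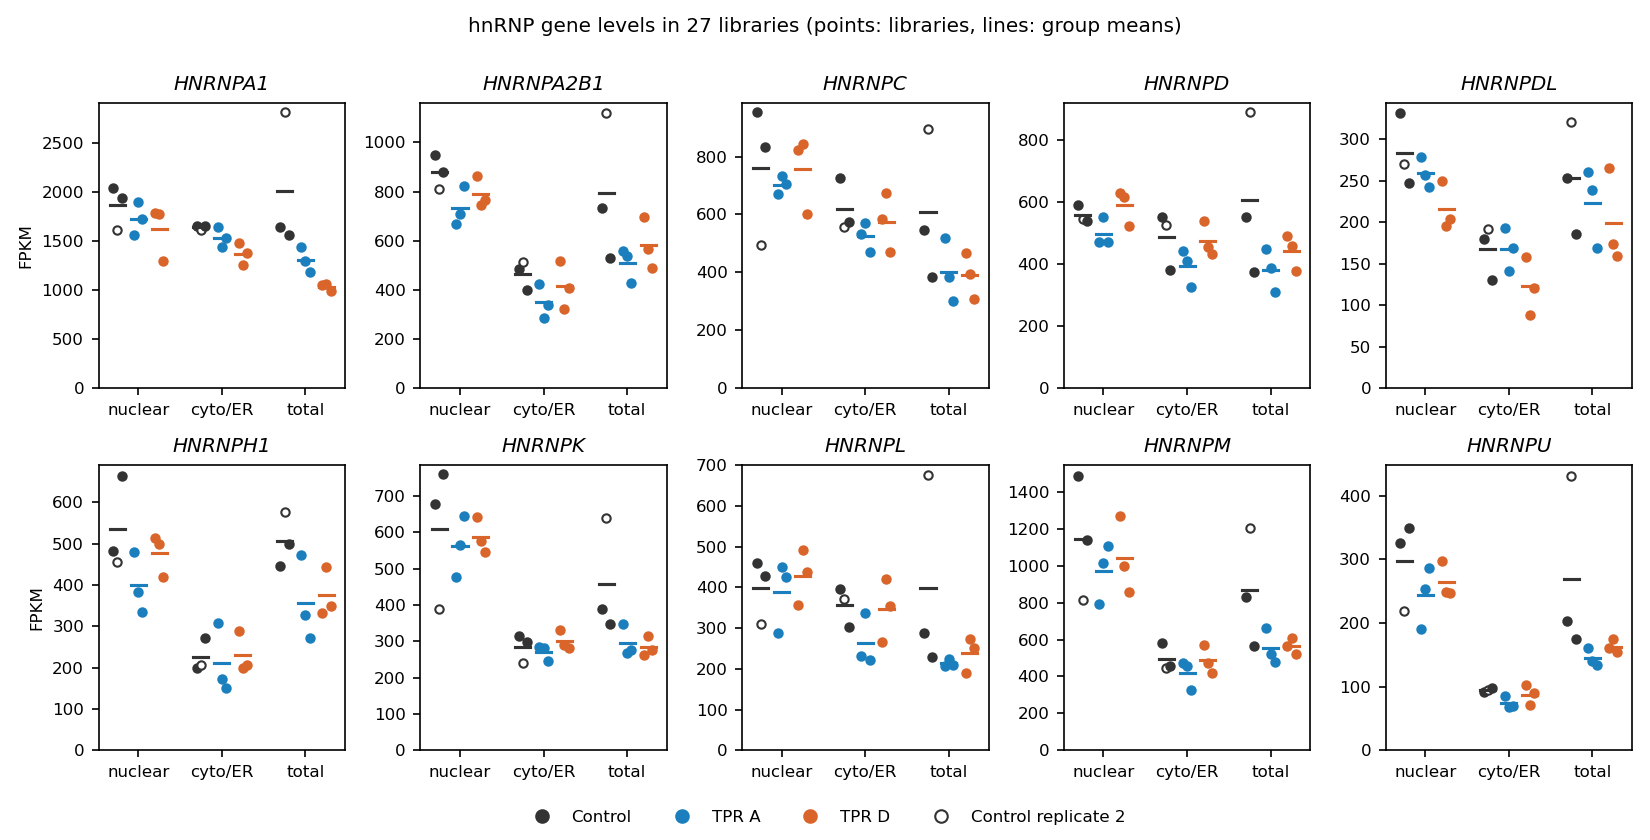
FPKM of the 10 hnRNP genes (vertical axes, linear, from 0) in the nuclear, cytoplasmic/ER and total libraries of control, TPR A and TPR D cells, with 3 points per group, 1 per library, and a line at the group mean. The open symbols are the libraries labelled control replicate 2, whose total library was the highest total value of each gene, for example 2820 FPKM for HNRNPA1.

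The first comparison asked which hnRNP mRNAs were enriched in the nucleus of control cells. The N/C ratio was the nuclear over the cytoplasmic/ER level on a log2 scale after rescaling each library to the typical gene, so that 0 is the ratio of a typical gene. All 10 genes had a positive N/C ratio with control shRNA (49.3% of all genes had), and for 6 of them (HNRNPU, HNRNPH1, HNRNPM, HNRNPK, HNRNPA2B1 and HNRNPDL) limma called the enrichment at an adjusted p under 0.05. Among all genes tested 20.2% were called higher in the nucleus. The median N/C ratio of the 10 genes was 0.88, beside -0.01 over all genes. The other 4 genes, HNRNPA1, HNRNPC, HNRNPD and HNRNPL, were not called.

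HNRNPU had the highest ratio. Its nuclear libraries held 326, 219 and 350 FPKM in control replicates 1 to 3 and its cytoplasmic/ER libraries held 91.1, 94.2 and 97.9 FPKM. Every nuclear value was more than the highest cytoplasmic/ER value, also in the culture labelled control replicate 2. The fitted ratio was 3.17-fold (log2 1.67, SE 0.24, adjusted p = 2.7e-05), and it was 3.65-fold without control replicate 2. HNRNPH1 held 483, 455 and 665 FPKM in the nucleus against 199, 206 and 272 in the cytoplasmic/ER fraction, a 2.42-fold ratio (log2 1.27, SE 0.26, adjusted p = 0.0006). The groups did not overlap. Its ratio was among the least affected by the doubtful culture, with 1.31 on the log2 scale without it.

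HNRNPM, second in abundance to HNRNPA1, held 1487, 815 and 1136 FPKM in the nuclear and 581, 448 and 459 FPKM in the cytoplasmic/ER libraries, a ratio of 2.32-fold (log2 1.21, SE 0.25, adjusted p = 0.0006). HNRNPK held 679, 389 and 759.6 FPKM in the nuclear and 314, 239 and 299 FPKM in the cytoplasmic/ER libraries, a ratio of 2.13-fold (log2 1.09, SE 0.22, adjusted p = 0.0006). For both genes the lowest nuclear value was that of control replicate 2, and it still lay over all cytoplasmic/ER values. Without that culture the log2 ratios were 1.36 for HNRNPM and 1.26 for HNRNPK. HNRNPA2B1 held 947, 809 and 881 FPKM against 486, 512 and 398 FPKM, a ratio of 1.94-fold (log2 0.96, SE 0.23, adjusted p = 0.0020). HNRNPDL held 332, 269.9 and 247 FPKM against 180.1, 192 and 130.0 FPKM, a ratio of 1.74-fold (log2 0.80, SE 0.24, adjusted p = 0.012). Without control replicate 2 the log2 ratios of this pair were 1.09 and 0.93. The fractions of both genes were apart, but the call for HNRNPDL was lost without control replicate 1 (adjusted p = 0.088) or without control replicate 3 (adjusted p = 0.062).

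The remaining 4 genes had ratios closer to that of a typical gene. HNRNPA1 held 2038, 1619 and 1941 FPKM in the nuclear and 1657, 1616 and 1658 FPKM in the cytoplasmic/ER libraries. On the FPKM scale the lowest nuclear value thus fell inside the cytoplasmic/ER values, and the fitted log2 ratio was 0.21 (SE 0.19, 95% interval -0.17 to 0.60). HNRNPD held 589, 544 and 539 FPKM against 549.9, 526 and 380.3 FPKM, with a log2 ratio of 0.25 (SE 0.23), and its fractions overlapped too. HNRNPC held 953, 494 and 833 FPKM against 726, 558 and 572 FPKM (log2 0.29, SE 0.27), and the overlap came from the nuclear library labelled control replicate 2. HNRNPL held 461, 310.0 and 428 FPKM against 395, 372 and 302 FPKM (log2 0.19, SE 0.29), again with the lowest nuclear value in control replicate 2. Without that culture the 4 ratios were 0.29 (HNRNPA1), 0.33 (HNRNPD), 0.50 (HNRNPC) and 0.39 (HNRNPL), and none was called by limma. On the rescaled log2 scale the fractions of control cells did not overlap for 8 of 10 genes, all but HNRNPC and HNRNPL, where 24.7% of all genes had nuclear values wholly above.

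The cultures were also compared by the style of their labels, since those of replicate 1 were written differently from those of replicates 2 and 3. With replicate 1 alone the control N/C ratios of the 6 called genes ran from 0.91 to 1.87, and those of the other 4 from 0.13 to 0.42. With replicates 2 and 3, which include control replicate 2, the same ranges were 0.75 to 1.56 and 0.15 to 0.31. The 6 lay above the 4 in both, a description only, since the 6 were called from these same libraries.

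The N/C ratio was next taken in TPR-depleted cells. With TPR D limma called the same 6 genes as nuclear enriched (background 17.1% of genes), with HNRNPU at 3.08-fold. With TPR A it called 5 of them (background 15.2%), with HNRNPU at 3.25-fold, and HNRNPDL missed the threshold (log2 0.65, SE 0.24, adjusted p = 0.051). The nuclear and cytoplasmic/ER libraries come from the same culture, and with the culture as a replicate block HNRNPDL passed (adjusted p = 0.0078). The calls for HNRNPH1 ended without replicate 2 of the shRNA concerned (adjusted p = 0.089 for TPR A, 0.051 for TPR D). That for HNRNPDL with TPR D ended without TPR D replicate 2 (adjusted p = 0.090) or replicate 3 (adjusted p = 0.052). The 4 other genes were not called with either shRNA, and HNRNPL had log2 ratios of 0.56 (SE 0.29) with TPR A and 0.34 with TPR D.

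Over all 9 cultures 7 of the 10 genes had a higher nuclear than cytoplasmic/ER level within every culture (HNRNPA2B1, HNRNPD, HNRNPDL, HNRNPH1, HNRNPK, HNRNPM and HNRNPU), beside 24.0% of all genes. For HNRNPA2B1, HNRNPH1, HNRNPK, HNRNPM and HNRNPU the lowest of 9 nuclear values also exceeded the highest of 9 cytoplasmic/ER values, which held for 10.4% of all genes. HNRNPC and HNRNPL were above 0 in 8 of 9 cultures, with control replicate 2 as the exception (-0.13 and -0.22). HNRNPA1 was above 0 in 7 of 9, with -0.06 in TPR A replicate 1 and -0.04 in TPR D replicate 3.

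Ordered by the mean of 9 cultures, the log2 N/C ratio was 1.66 ± 0.31 (SD) for HNRNPU, 1.19 ± 0.29 for HNRNPM, 1.11 ± 0.23 for HNRNPH1, 1.05 ± 0.23 for HNRNPK and 1.00 ± 0.26 for HNRNPA2B1. HNRNPU exceeded HNRNPM in 9 of 9 cultures, by 0.48 ± 0.16. Among HNRNPM, HNRNPH1, HNRNPK and HNRNPA2B1, neighbours in this order did not differ from each other beyond the spread over cultures. HNRNPDL followed at 0.77 ± 0.22, under HNRNPA2B1 in 9 of 9 cultures. HNRNPC (0.38 ± 0.21), HNRNPL (0.36 ± 0.30), HNRNPD (0.31 ± 0.18) and HNRNPA1 (0.21 ± 0.20) formed the lower end and were not separable from each other. The mean of the upper 6 exceeded that of the lower 4 by 0.58 to 0.98 in each of the 9 cultures, a description only, since the split was taken from these ratios. In TPR A replicate 3 the genes themselves crossed, with HNRNPDL (0.53) under HNRNPL (0.93) and HNRNPC (0.59), and in the other 8 cultures the lowest of the 6 lay above the highest of the 4. HNRNPC with the longest and HNRNPA1 with the shortest unspliced transcript were both at the lower end. A relation of the N/C ratio with unspliced length was not tested. The paralogs HNRNPD and HNRNPDL, and likewise HNRNPA1 and HNRNPA2B1, fell on different sides of the split.

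**Figure D2:**
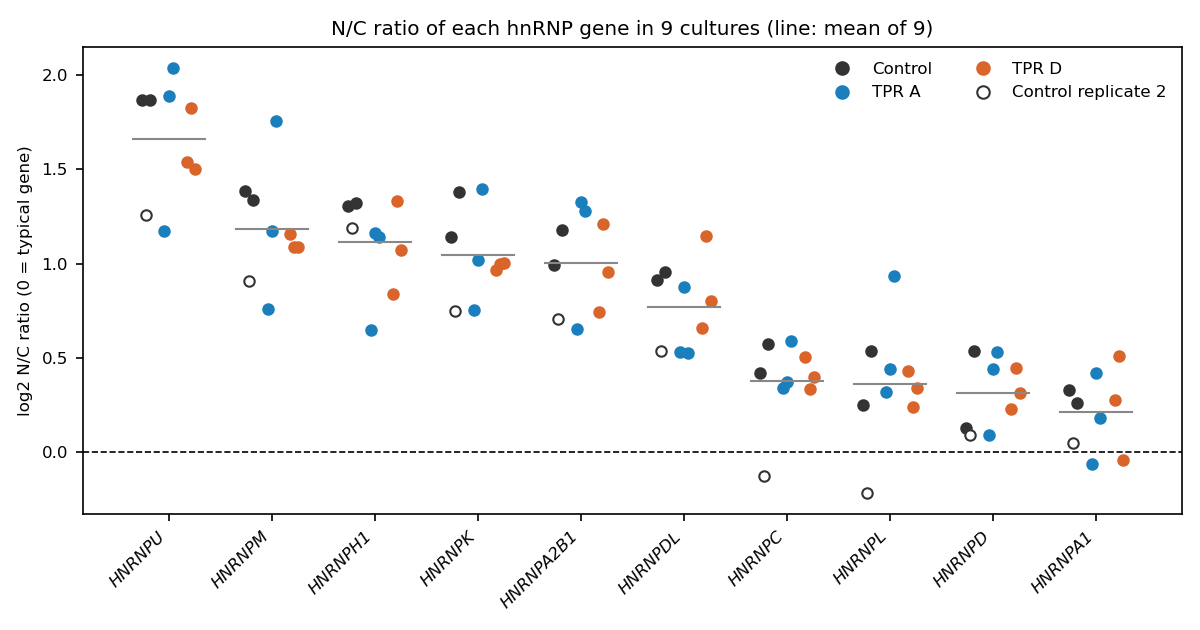
The log2 N/C ratio (vertical axis, 0 is the typical gene) of each hnRNP gene in 9 cultures, coloured by shRNA, with a line at the mean of the 9 and open symbols for control replicate 2. HNRNPU lies highest with a mean of 1.66, and HNRNPC, HNRNPL, HNRNPD and HNRNPA1 lie lowest with means of 0.21 to 0.38.

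The main question of the design was whether TPR depletion shifted mRNAs towards the nucleus. For the hnRNP genes no shift was called. The change of the N/C ratio, in TPR-depleted minus control cells, ran from -0.29 (HNRNPH1) to 0.37 (HNRNPL) with TPR A and from -0.19 (HNRNPH1) to 0.15 (HNRNPL) with TPR D. The 10 genes had a median of 0.03 under TPR A and 0.02 under TPR D, beside 0.00 over all genes for each shRNA. None of the 10 was called, and limma called 0 of 14611 genes in either comparison (0.0%), with 215 and 120 genes at an unadjusted p under 0.05, none of them an hnRNP gene of the 10. For both shRNAs together no gene was called either (0.0%, with 251 at an unadjusted p under 0.05).

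The precision of these changes was limited. With both shRNAs together the change of HNRNPU was -0.00 (SE 0.29, 95% interval -0.62 to 0.61), that of HNRNPA1 was 0.00 (SE 0.23, interval -0.47 to 0.47) and that of HNRNPH1 was -0.24 (SE 0.32, interval -0.90 to 0.42). The upper bounds of the intervals ran from 0.42 to 0.98 over the 10 genes. Without control replicate 2 the median turned to -0.12 with TPR A (7 of 10 genes lower, beside 49.7% of all genes) and to -0.10 with TPR D (10 of 10 lower, beside 51.3%), and HNRNPL was at 0.17 with TPR A. In the same setting the change with both shRNAs was negative for 8 of 10 genes (all but HNRNPD and HNRNPL), from -0.28 to 0.06 with a median of -0.13, beside 50.9% of all genes, and none was called. With replicate 1 alone the change ran from -0.56 (HNRNPH1) to 0.12 (HNRNPL), and with replicates 2 and 3 from -0.08 (HNRNPH1) to 0.33 (HNRNPL). The changes of TPR A and TPR D were computed against the same control libraries. The difference between both shRNAs ran from -0.22 (HNRNPDL) to 0.23 (HNRNPL), and none was called (0.0% of genes, with 49 at an unadjusted p under 0.05).

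**Figure D3:**
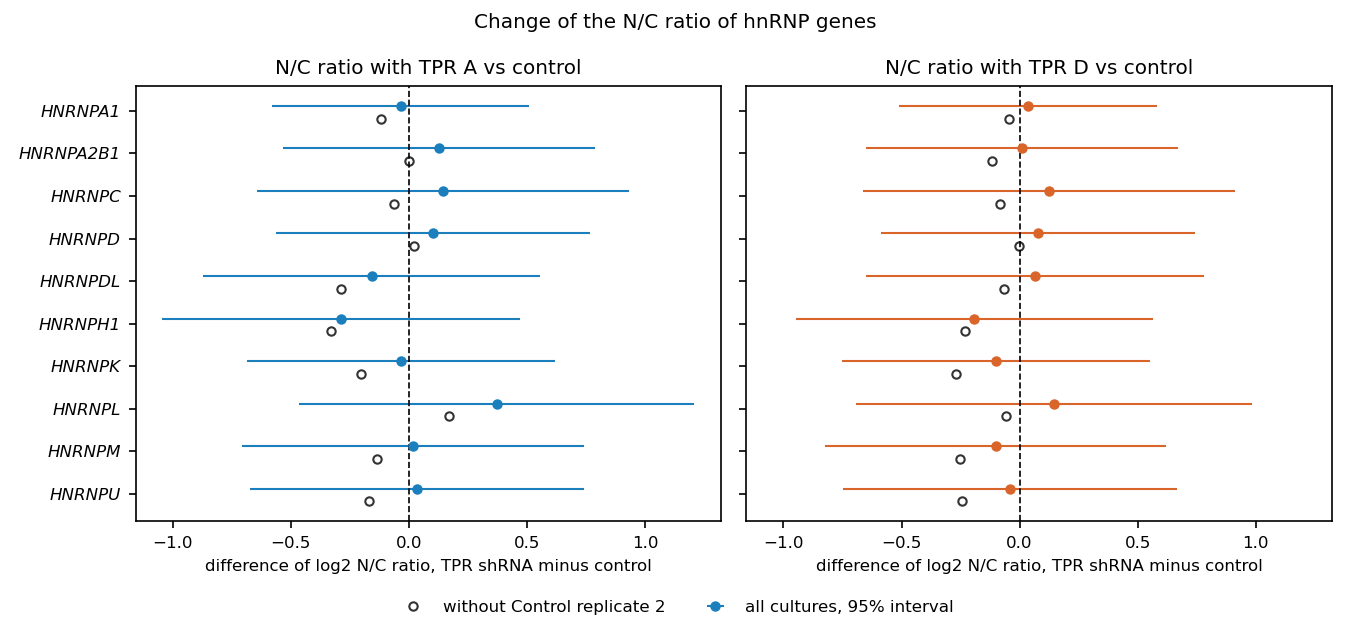
The change of the log2 N/C ratio of each hnRNP gene with TPR A and with TPR D against control (filled symbols with 95% intervals from limma), and the same value without control replicate 2 (open symbols). Every interval spans 0, from -1.04 to 0.47 for HNRNPH1 with TPR A to -0.46 to 1.21 for HNRNPL with TPR A.

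The next comparison asked whether TPR depletion altered the amount of hnRNP mRNA in total RNA. All 10 genes were lower than control with each shRNA, by a median of -0.52 on the log2 scale with TPR A and -0.49 with TPR D, whereas 50.6% and 50.8% of all genes were lower and the medians over all genes were -0.01. Of the 10, limma called 0 with TPR A (0.821% of all genes were called, 0.281% as lower) and 1, HNRNPA1, as lower with TPR D (0.438% of all genes were called lower). At an unadjusted p under 0.05, 7 genes were lower with TPR A and 3 with TPR D, beside 5.84% and 7.96% of all genes. Without control replicate 2 these numbers were 0 with TPR A and 1, HNRNPA1, with TPR D, beside 3.63% and 4.87% of all genes.

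HNRNPA1 was at 1644, 2820 and 1568 FPKM in the total libraries of control replicates 1 to 3, at 1446, 1302 and 1184 FPKM with TPR A, and at 1057, 1060 and 989.8 FPKM with TPR D. All 6 TPR-depleted libraries were under the lowest control library, a separation that 2.98% of all genes showed in this direction after rescaling and, on that scale, no other gene of the 10. The fold decrease was 1.42 with TPR A (log2 -0.51, SE 0.19, adjusted p = 0.23), 1.77 with TPR D (log2 -0.83, SE 0.19, adjusted p = 0.036) and 1.59 with both (log2 -0.67, SE 0.16, adjusted p = 0.041, with 0.363% of all genes called lower). Without the culture labelled control replicate 2, whose total library had the low mitochondrial share given above, these were -0.27, -0.59 (adjusted p = 0.17) and -0.43 (adjusted p = 0.35), and no call was left. The calls also ended without any other single culture except control replicate 3, with adjusted p between 0.066 and 0.13 for TPR D.

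HNRNPU was at 203, 430.4 and 175 FPKM in control total libraries and at 161, 141 and 134 FPKM with TPR A, which did not overlap. With TPR D it was at 160.4, 174 and 155 FPKM, also below all 3 control values in FPKM but not after rescaling. Its fitted change was -0.72 with TPR A (SE 0.24, adjusted p = 0.19) and -0.53 with TPR D (SE 0.24, adjusted p = 0.31), and it was -0.35 and -0.17 without control replicate 2. HNRNPL was at 288, 676 and 228 FPKM in control, 207, 224 and 209.8 with TPR A, and 191, 274 and 252 with TPR D. Only the TPR A group lay below all control values, and the fitted change was -0.67 (SE 0.29, adjusted p = 0.33), or -0.23 without control replicate 2. HNRNPK was at 390.1, 639.7 and 348 FPKM in control, 347, 268 and 275 with TPR A and 262, 316 and 275 with TPR D. All 6 TPR-depleted values were below the lowest control value in FPKM, and those of TPR D also after rescaling. Its fitted change with TPR D was -0.57 (SE 0.22, adjusted p = 0.24), or -0.33 without control replicate 2. On the rescaled scale 3 of the 10 genes with TPR A (HNRNPA1, HNRNPL and HNRNPU) and 2 with TPR D (HNRNPA1 and HNRNPK) did not overlap with control, beside 8.33% and 7.93% of all genes lower.

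HNRNPDL moved least, from 254, 320.3 and 186 FPKM in control to 260.4, 238 and 169 with TPR A and 265, 174 and 159 with TPR D. Its groups overlapped, and the fitted changes were -0.11 and -0.27. The other genes, HNRNPA2B1, HNRNPC, HNRNPD, HNRNPH1 and HNRNPM, had fitted changes of -0.53 to -0.30 with both shRNAs taken singly, none of them called. Without control replicate 2 the 10 changes ran from -0.41 to 0.04 with TPR A (9 of 10 lower) and from -0.59 to -0.01 with TPR D (10 of 10 lower), with medians of -0.27 and -0.19, whereas 50.4% and 51.1% of all genes were lower. With replicate 1 alone 8 of 10 were lower with TPR A and 9 of 10 with TPR D, beside 51.7% and 51.4% of all genes. With replicates 2 and 3 all 10 were lower with each, beside 50.0% and 49.9% of all genes. That setting includes control replicate 2, whose total library was the highest for each of the 10 genes. The members share a library and are not independent, so the count of genes in 1 direction is a description. The difference between TPR A and TPR D in total RNA ran from -0.23 (HNRNPD) to 0.32 (HNRNPA1), and none was called, beside 0.281% of all genes.

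**Figure D4:**
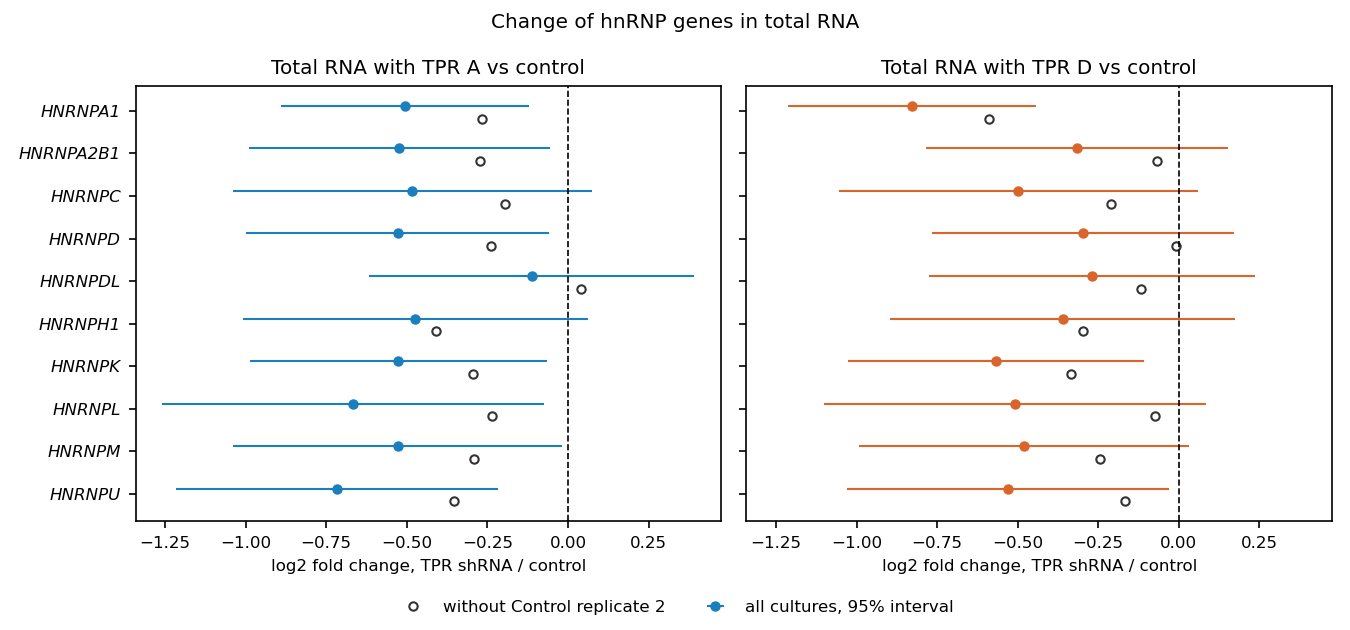
The log2 fold change of each hnRNP gene in total RNA with TPR A and with TPR D against control (filled symbols with 95% intervals from limma), and the same value without control replicate 2 (open symbols). All filled symbols lie below 0, the lowest being HNRNPA1 with TPR D at -0.83, and most open symbols lie nearer to 0, with HNRNPDL at 0.04 for TPR A.

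The last comparison took the nuclear and the cytoplasmic/ER RNA singly. In nuclear RNA the change with both shRNAs ran from -0.28 (HNRNPH1) to 0.04 (HNRNPL), 9 of 10 genes were lower, and none was called (0.808% of all genes were). In cytoplasmic/ER RNA it ran from -0.27 (HNRNPA2B1) to 0.04 (HNRNPK), again with 9 of 10 lower and none called (0.643% of all genes were). The share of all genes lower was 51.9% and 52.9%. No gene of the 10 had all 6 TPR-depleted libraries on 1 side of the control libraries, beside 6.21% of all genes in nuclear and 5.39% in cytoplasmic/ER RNA. HNRNPA1, the gene called in total RNA, was at -0.15 (SE 0.16) in both fractions. Its nuclear libraries held 1563, 1902 and 1726 FPKM with TPR A and 1786, 1777 and 1302 with TPR D, and its cytoplasmic/ER libraries held 1643, 1437 and 1528 with TPR A and 1482, 1258 and 1381 with TPR D. Without control replicate 2 all 10 genes were lower in both fractions (52.0% and 53.1% of all genes were), with medians of -0.27 in nuclear and -0.17 in cytoplasmic/ER RNA, beside -0.23 in total RNA, and no call.

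Further hnRNP and hnRNP-like genes showed both signs of the N/C ratio. Of 22 tested genes, 8 were called nuclear enriched in control cells and 3 cytoplasmic, with a median of 0.25. Among all 14611 genes, 2945 were called nuclear enriched and 2805 cytoplasmic. The largest were HNRNPH2, the close paralog of HNRNPH1, at 2.96-fold (adjusted p = 0.0005), SYNCRIP at 2.55-fold, PTBP2, the neuronal form of PTB, at 2.40-fold and HNRNPR at 2.34-fold. PCBP4 and PCBP2, poly(C)-binding proteins of the family of HNRNPK, were the opposite, with a cytoplasmic excess of 2.55-fold (adjusted p = 8.1e-05) and 2.07-fold (adjusted p = 0.0008). None of the 22 was called for a change of the N/C ratio, which was lowest for PTBP3 (-0.75, or -0.20 without control replicate 2) with both shRNAs. In total RNA none was called either, and 18 of 22 were lower with both shRNAs, beside 51.2% of all genes. The median of the 22 was -0.31, or -0.10 without control replicate 2. PTBP3 was the highest, at 0.32, but was at -0.09 without that culture.

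The import receptors and the methyltransferase of hnRNP proteins gave 2 calls after TPR depletion, both for the same gene with TPR D. TNPO2, a transportin that carries hnRNP proteins into the nucleus, was 2.18-fold lower in total RNA with TPR D (log2 -1.12, SE 0.21, adjusted p = 0.011), which was -0.95 and not called without control replicate 2 (adjusted p = 0.070). This call also ended without TPR D replicate 1 (adjusted p = 0.091) or TPR D replicate 3 (adjusted p = 0.053). In nuclear RNA with TPR D, TNPO2 was 1.90-fold lower (log2 -0.93, SE 0.21, adjusted p = 0.044, with 0.26% of all genes called lower), and -0.96 without control replicate 2 (adjusted p = 0.087). In total RNA with TPR A its change was -0.26 (adjusted p = 0.64), and the difference between the shRNAs was 0.87 (adjusted p = 0.077). Its paralog TNPO1 was at -0.02 with TPR D and was not called. In control cells TNPO1 and TNPO2 were 1.998-fold and 1.56-fold nuclear enriched (adjusted p = 8.6e-05 and 0.018), and PRMT1, the main arginine methyltransferase of hnRNP proteins, was not called (log2 -0.45, or -0.21 without control replicate 2). The TNPO2 enrichment was not called without control replicate 1 (adjusted p = 0.090) or control replicate 3 (adjusted p = 0.084). SR splicing factors often act against hnRNP proteins on the same exons. Of 10 tested SR genes, 5 were called nuclear enriched in control cells, beside 20.2% of all genes. Their N/C ratios ran from -0.50 (SRSF9) to 1.08 (SRSF11) over the 10, with a median of 0.40. Without control replicate 2 the number called was 4 and the median 0.54. In total RNA their median change with both shRNAs was -0.04 and none was called, from -0.43 (SRSF2) to 0.39 (SRSF10), or from -0.22 to 0.32 over the list without control replicate 2.

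Within groups, the 10 hnRNP genes varied together in part. After centring each group and without the culture control replicate 2, the 45 pairs had Pearson correlations over 24 libraries from -0.50 to 0.88 with a median of 0.45, and 40 were positive. The points share libraries and therefore depth and fraction purity. The highest was that of HNRNPA2B1 with HNRNPDL (0.88), followed by HNRNPC with HNRNPD (0.83) and HNRNPD with HNRNPM (0.82). The lowest was that of HNRNPDL with HNRNPL (-0.50). Over all 27 libraries the genes whose profile was most like the mean of the 10 were KIF4A (r = 0.98), RRM1 (0.96), NOLC1 (0.96), PRC1 (0.96) and ZW10 (0.96). These values include the differences between the fractions, which all libraries of a kind share. They also include the culture control replicate 2, and no values without it are given.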

How the data were processed

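Poly(A)-selected libraries were made from nuclear, cytoplasmic/ER and total RNA with a strand-specific kit. Per the study's methods, reads were assigned with Salmon to GENCODE 19 protein-coding and long non-coding transcripts and summed per gene by tximport. The authors deposited the values as FPKM in 1 table, with DESeq2 and hg19 also named in the submitters' processing notes. The Salmon version is not given in the sources used here. The rescaling factors given below stayed within 0.954 to 1.06, while the mitochondrial share of the libraries ran from 0.738 to 37.9%. The typical gene outside the mitochondrial genome was thus at a similar level in all libraries as deposited. How the library total entered the deposited values is not given in the sources used here.

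Here the 13 genes of the mitochondrial genome were left out, and genes with a mean over 1 FPKM were kept. Each library was rescaled by its median ratio to the geometric mean (factors 0.954 to 1.06). Values were taken as log2(FPKM + 0.1), which understates changes of low genes. The 9 groups of all 27 libraries were fitted together by limma 3.58.1 (R 4.3.3) using lmFit, contrasts.fit and eBayes with an intensity trend. p-values were adjusted over 14611 genes by the method of Benjamini and Hochberg, with a threshold of 0.05. In a test on simulated data, the fit recovered the added changes for most altered genes. Those added changes were larger than any change of the hnRNP N/C ratios, and the simulated libraries of a culture did not vary together. Whether the fit would find changes as small as those of the hnRNP N/C ratios was not tested. Groups and replicate numbers came from the sample titles. N/C comparisons used the nuclear and cytoplasmic/ER libraries of 1 culture, which deviated together from their group means (r = 0.223 to 0.469), so the culture was also used as a block. The p-values and SEs of the main fit measure the spread of libraries within groups, where each library of a group is from another culture. That fit had no block. It treated the libraries of a culture as independent, and its N/C comparisons did not use their pairing.

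The text names all 10 genes, the called genes of 2 further lists (at most the 6 largest per comparison) or else the highest and lowest, the highest and lowest SR genes, and the 5 genes most alike. The values of 1 listed gene are not reported here. The members, lists and tests were chosen with earlier results of these data known. As alternatives, FPKM without rescaling, a pseudocount of 1 or 0.01, no filter, a minimum mean of 5 FPKM, no trend, replicate blocks, each culture left out, and a fit of only the groups compared were tried. Cultures of replicate 1 alone, or of replicates 2 and 3, were added after the data were seen. PCBP3 and SRSF12 fell under the filter, and SRSF8 was not matched. Coordinates and canonical transcripts came from the GENCODE 44 annotation lifted to GRCh37.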

Additional observations from a re-analysis of the deposited data

How the results depend on the processing

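The number of hnRNP genes called for the control N/C ratio was 6 (5 without control replicate 1, without control replicate 3 or with replicates 2 and 3). The HNRNPA1 call in total RNA was the least stable result. With TPR D and with both shRNAs, 1 gene was called, and the number was 0 with no filter on low values, with a minimum mean of 5 FPKM, with only the groups compared and with replicates 2 and 3. With each culture left out it was 0 to 1. Under these settings the log2 change with TPR D stayed between -0.96 and -0.59. As a block, the replicate number left HNRNPA1 called with TPR D and with both shRNAs, and the numbers over all genes rose from 120 to 378 with TPR A, from 110 to 461 with TPR D and from 166 to 560 with both. Replicate numbers did not pair the control and TPR-depleted libraries in every comparison (correlations of -0.26 to 0.32). TPR A and TPR D libraries of the same replicate number did deviate together in cytoplasmic/ER (0.398 to 0.597) and nuclear RNA (0.131 to 0.266). In total RNA their correlations were -0.067 to 0.513. The shRNAs are thus not fully independent of each other. With replicates 2 and 3 only, 0 genes were called in total RNA with TPR D or with both.

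The change of the N/C ratio with both shRNAs lay near 0 and switched sign for several genes. With each culture left out it ran from -0.0806 to 0.0731 for HNRNPA1, from -0.0578 to 0.18 for HNRNPA2B1, from -0.0738 to 0.28 for HNRNPC, from -0.18 to 0.0317 for HNRNPDL, from -0.24 to 0.0778 for HNRNPK, from -0.19 to 0.0762 for HNRNPM and from -0.21 to 0.13 for HNRNPU. The change of HNRNPA1 was -0.024 with a minimum mean of 5 FPKM, and that of HNRNPU was 0.0177 with the values as deposited and 0.0176 with no filter. With replicates 2 and 3 it was 0.0905 for HNRNPDL, 0.0409 for HNRNPK, 0.15 for HNRNPM and 0.25 for HNRNPU, and with replicate 1 alone it was -0.22 for HNRNPA1 and -0.29 for HNRNPA2B1. With replicate 1 alone the N/C ratio of HNRNPA1 with TPR A was -0.0638, and the changes in total RNA were 0.0828 for HNRNPDL and 0.14 for HNRNPH1 with TPR A, 0.13 for HNRNPDL with TPR D and 0.11 for HNRNPDL with both. The change of HNRNPDL in total RNA with TPR A ran from -0.29 to 0.0725 with each culture left out. The causes were not tested.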

Other observations

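For some of the hnRNP genes the total libraries held less than both fractions of the same culture. In FPKM this was the case for HNRNPA1, HNRNPC and HNRNPL in 8 of 9 cultures each, the exception being control replicate 2, and for HNRNPA2B1, HNRNPDL, HNRNPH1 and HNRNPU in 0 of 9. In TPR D replicate 1, HNRNPL was at 358 FPKM in the nuclear and 267 FPKM in the cytoplasmic/ER library, beside 191 FPKM in the total library. After rescaling it was the case for HNRNPA1 in 6 and for HNRNPC and HNRNPL in 7 of 9 cultures. Of all genes 24.4% were below both fractions in 6 or more cultures after rescaling. Among the hnRNP genes followed here only HNRNPA1, HNRNPC and HNRNPL reached that number. The pattern was thus common among all genes and was not shown to be particular to hnRNP genes. For the counts in FPKM no share of all genes is given. The 3 genes with the most such cultures were among the 4 with the lowest N/C ratios. That is a description only, since both measures use the same nuclear and cytoplasmic/ER values.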
